A study of Anthurium andraeanum with 18 samples.

Results

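Leaves of the Anthurium andraeanum cultivar Oregon that had reached 6 °C were set against Oregon leaves kept at 25 °C. All 132108 transcript groups of the deposited count table, called genes here, were taken, none picked by its values, and 6 of the 18 libraries of the series entered the comparison. The plants were in full flower and had 12 h of light a day. Plants of the 6 °C group were moved to 15 °C for 3 days and then to 6 °C for 3 days before their leaves were taken, so the comparison holds both steps of cooling. Plants of the 25 °C group stayed at 25 °C. Each group had 3 libraries, called biological replicates in the labels, but whether they were different plants is not said. The p-values therefore rest on library-to-library spread, which may be technical. The time label of the 25 °C leaves reads 0 days while their titles read 3 days, and the hour of collection is not given. Age of the leaves and time of day therefore cannot be told apart from temperature. Fantasy Love, a second cultivar given the same temperature steps and hours of light, is used to ask where Oregon differed from it. The titles of its 25 °C leaves read control in place of 3 days. The count filter and the estimate of spread behind the p-values also used all 18 libraries.

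Anthurium is a tropical aroid grown for its coloured spathes. Chilling slows the enzymes that use the energy of light more than it slows the capture of light itself, so leaves of tropical plants are prone to light damage in the cold. Plants commonly make fewer antenna proteins under such conditions, and they make protective sugars, chaperones and detoxifying enzymes, under the control of hormones such as ethylene, jasmonate and abscisic acid. Gene names below are those of the most similar protein in other species, as the deposited table gives them.

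A large part of the measured leaf transcriptome of Oregon changed. Of 51670 genes with enough counts over the 18 libraries, 25004 passed the test, which is 48.4%. A gene passed at an adjusted p below 0.05 with a log2 fold change of at least 1 in either direction. The risen genes numbered 14602 (28.3%) and the fallen ones 10402 (20.1%). With only the 6 Oregon libraries in the filter and fit, 22844 of 36761 tested genes passed, 12708 as risen and 10136 as fallen. With quantile normalisation the counts were close to each other, 12280 risen and 12215 fallen. With at least 50 counts in 3 libraries they were 8492 and 7767 of 28699 tested genes. The excess of rises therefore depends on the scaling and on the count filter. The 3 libraries at 6 °C did not overlap with the 3 at 25 °C in 69.9% of all tested genes, lying above them in 39.6% and below them in 30.4%. Genes with a plant protein name and those with none moved in different proportions. Of 24963 genes with a plant name 21.3% rose and 27.3% fell, and of 26650 genes with no name 34.8% rose and 13.4% fell. The gene lists below hold genes with a plant name only, so their counts are to be read against 21.3% risen and 27.3% fallen. Those shares depend on the fit: with only genes with a plant hit fitted and scaled, 6237 of 24946 rose and 5728 fell. A gene that did not pass is not shown to be unchanged. The median log2 fold change was 0.36 over all tested genes and -0.19 over those with a plant name. Other scalings moved the median of all genes to 0.47 (DESeq2 size factors) and -0.00 (quantile normalisation), so the zero point of the fold changes is uncertain by about that much.

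The libraries held 16049383 to 19357649 counts at 6 °C and 17121829 to 20230814 counts at 25 °C. At least 1 count was found for 91543 to 93052 genes in the 6 °C libraries, against 66064 to 72320 genes in the 25 °C libraries. The 100 genes with the most counts took 14.5 to 14.9% of a library at 6 °C, against 27.8 to 29.2% at 25 °C. The part played by that shift in the number of genes detected was not tested. Within a group the libraries had Pearson correlations of 0.9625 to 0.9708 on the log2 scale over all tested genes, which are not independent replicates. Values below are CPM, counts scaled to a common library size, given per library, or the mean ± SD of n = 3 libraries, and log2 fold changes of 6 °C over 25 °C are given ± SE. Adjusted p-values are those of edgeR's quasi-likelihood test with Benjamini-Hochberg adjustment over all 51670 genes. Of the 159 genes named below 151 passed the test, 79 as risen and 72 as fallen. Their adjusted p-values were at most 0.0114 by edgeR's quasi-likelihood test. In none of those 151 did libraries of the 2 groups overlap. The same held for 14382 of all 14602 risen and 10269 of all 10402 fallen genes, so it is no separate support. Verbs of rise and fall are kept for those 151 genes.

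At 6 °C 59 genes reached 1000 CPM or more on average, against 105 genes at 25 °C. At 100 CPM or more the groups held nearly the same number of genes, 1891 at 6 °C and 1890 at 25 °C. Because leaf RNA is a mixture, fewer cells of a type and less RNA per cell cannot be told apart.

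**Figure D1:**
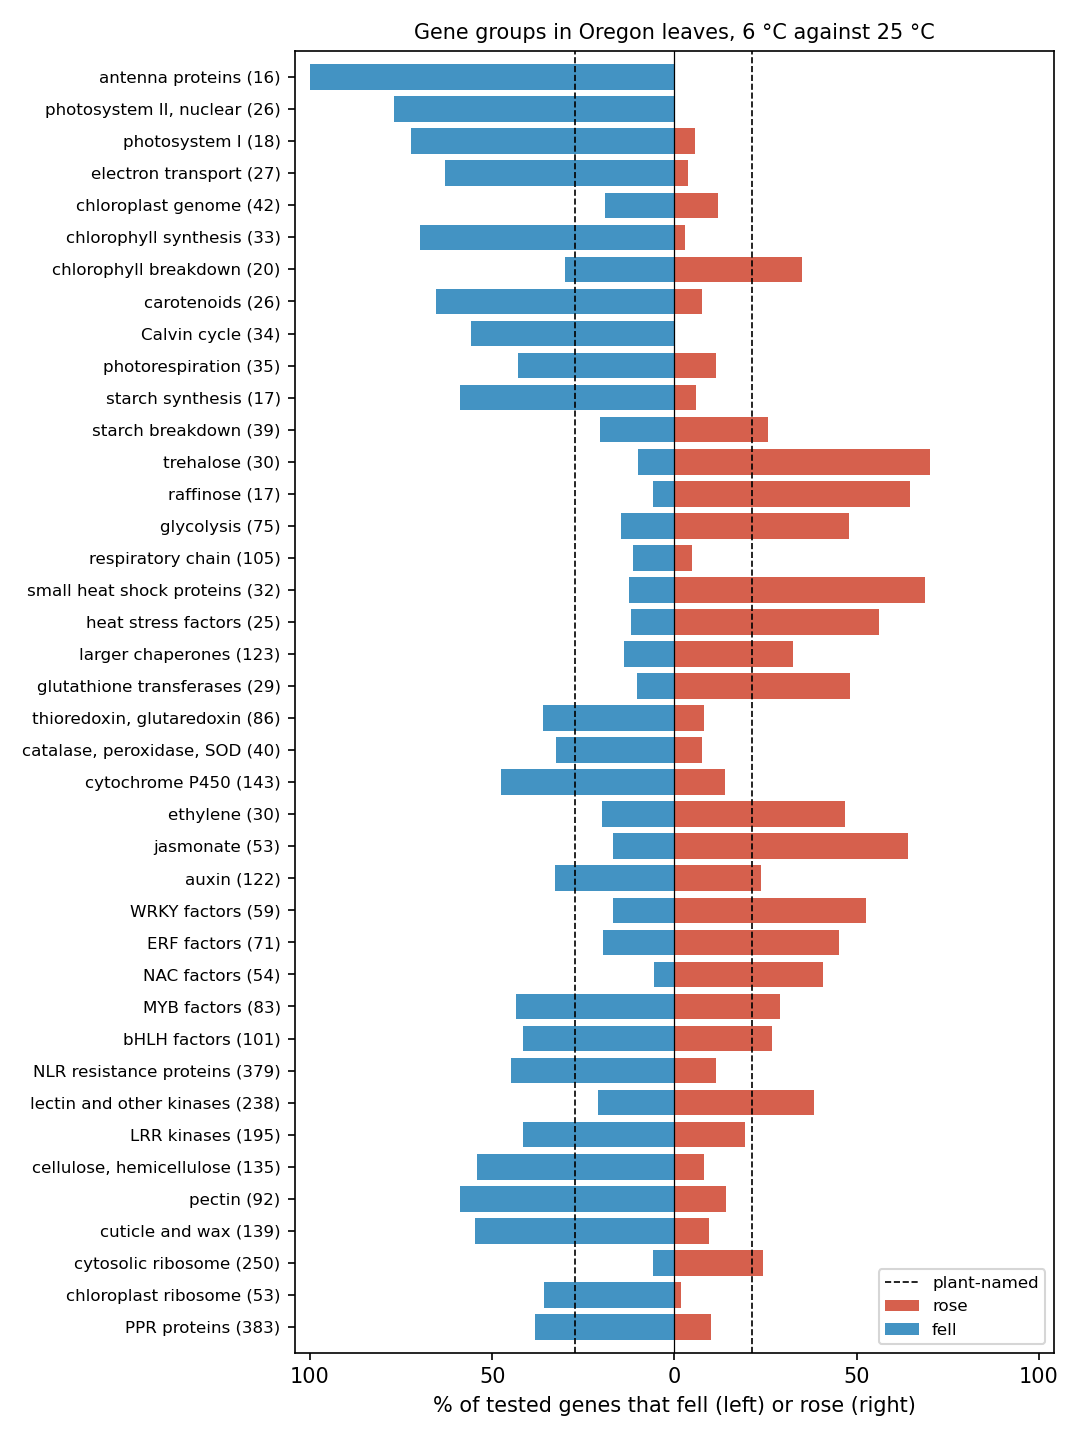
Share of tested members that rose (bars to the right) and fell (bars to the left) at 6 °C against 25 °C in Oregon leaves, for the gene groups on the vertical axis, with the number tested in brackets. Dashed lines mark the shares over the 24963 tested genes with a plant name, 21.3% risen and 27.3% fallen. Antenna and photosystem genes extend only or mainly to the left, and trehalose, small heat shock and jasmonate genes mainly to the right.

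The machinery that captures light had the lowest median fold change of the 118 gene lists examined. Antenna proteins hold chlorophyll and pass the energy of light to the photosystems. Of 22 antenna genes in the table, 16 were tested and all 16 fell, with a median log2 fold change of -7.95 against 0.36 over all genes. Together they took 0.05, 0.0416 and 0.0589% of counts at 6 °C, against 6.48, 5.73 and 5.09% at 25 °C. CAB8 (DN55657_c0_g1) had 48.7, 36.6 and 41.7 CPM at 6 °C, against 10613, 9574 and 7819 CPM at 25 °C, a log2 fold change of -7.78 ± 0.36 (edgeR quasi-likelihood adjusted p = 1.82e-10). An LHCII type III protein (DN42344_c0_g6), a subunit of the antenna trimers of photosystem II, had 0.791, 0.679 and 1.24 CPM at 6 °C, against 859.6, 962 and 726 CPM at 25 °C. In both genes every 6 °C library lay far below every 25 °C library.

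Most tested genes for nuclear photosystem II and for photosystem I subunits and assembly factors fell as well, with medians nearer to 0. Photosystem II splits water and photosystem I reduces ferredoxin. Of 26 tested nuclear photosystem II genes 20 fell and 0 rose, and of 18 photosystem I genes 13 fell and 1 rose, with medians of -2.78 and -2.81. PSBR (DN47334_c0_g4), a small photosystem II subunit, had 659, 598 and 656 CPM at 6 °C, against 4856, 4536 and 3884 CPM at 25 °C. PSBP1 (DN35016_c0_g1), which helps the water-splitting centre hold calcium and chloride, fell to 101 ± 11.9 CPM at 6 °C, against 1676 ± 234 CPM at 25 °C. PSAO (DN44241_c0_g1), a photosystem I subunit at the docking side of the antenna, had 38, 25.6 and 28.5 CPM at 6 °C, against 2344, 2234 and 1760.3 CPM at 25 °C, and its log2 fold change was -6.10 ± 0.42. PSAH1 (DN57075_c3_g2), a neighbouring subunit, fell to 111 ± 7.14 CPM at 6 °C, against 2674 ± 364 CPM at 25 °C.

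Electron carriers and the chloroplast ATP synthase followed in the same direction with smaller changes. Of 27 electron transport genes 17 fell and 1 rose. PNSB4 (DN47481_c0_g1), a subunit of the NDH complex that returns electrons from photosystem I, had 17.3, 16 and 17.5 CPM at 6 °C, against 496, 472 and 429 CPM at 25 °C. The gene that rose was FDX3 (DN37243_c0_g4), a ferredoxin of the type found in roots and other non-green plastids in Arabidopsis and maize, with 243 ± 9.67 CPM at 6 °C, against 97.3 ± 5.22 CPM at 25 °C. The leaf-type ferredoxin with the most counts (DN49972_c0_g3) had 237 ± 71 CPM at 6 °C, against 1771 ± 246 CPM at 25 °C, and fell. In the chloroplast ATP synthase 5 of 6 genes fell, among them ATPD (DN52473_c0_g3) with 40.4 ± 8.8 CPM at 6 °C, against 286 ± 19.9 CPM at 25 °C. Of 42 tested genes named for proteins normally encoded in the chloroplast genome, 5 rose, 8 fell and 29 did not pass. With quantile normalisation 15 fell. The photosystem II core protein psbA (DN43689_c2_g3) had 112, 208 and 189 CPM at 6 °C, against 172, 439 and 259 CPM at 25 °C, groups that overlapped (adjusted p = 0.109, edgeR quasi-likelihood test). It passed, at -1.08, only when 25 °C replicate 1 was left out.

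**Figure D2:**
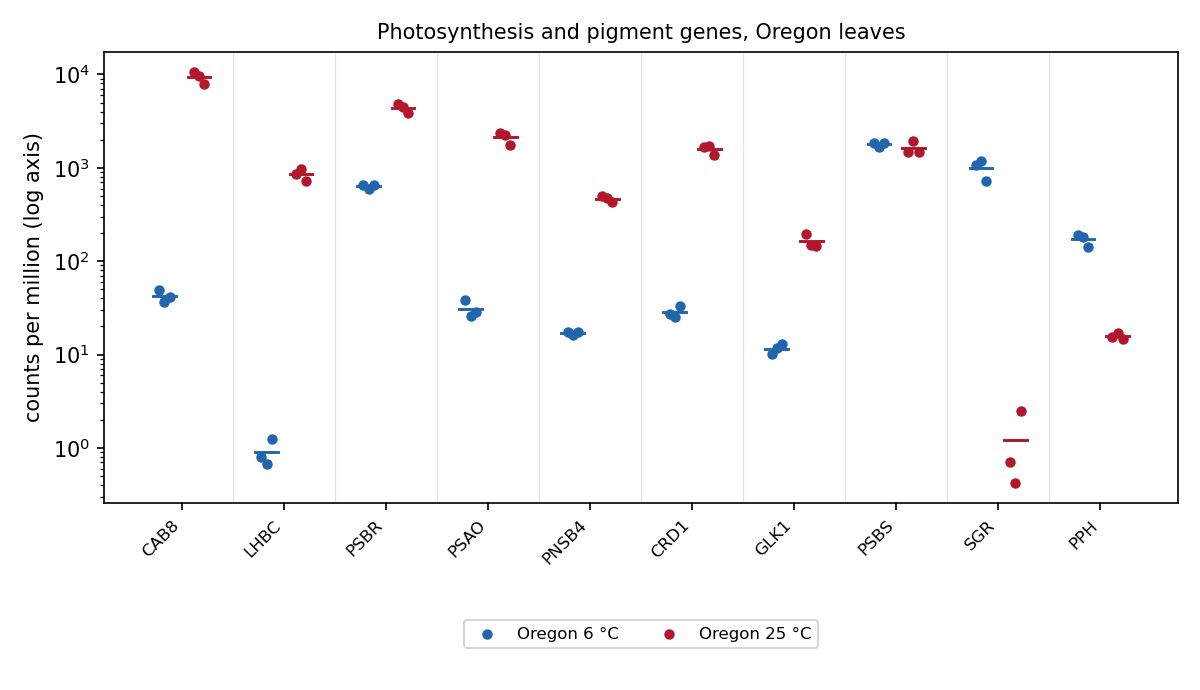
CPM (log axis) of 10 photosynthesis and pigment genes in each Oregon library, with 6 °C points to the left of 25 °C points for each gene and a bar at each group mean. LHBC is the LHCII type III gene. PSBS overlaps between temperatures, SGR and PPH are higher at 6 °C and the other 7 genes are lower.

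Most chlorophyll synthesis genes fell, and breakdown genes went both ways. Of 33 synthesis genes 23 fell and 1 rose. CRD1 (DN54145_c0_g1), the cyclase that closes the fifth ring of chlorophyll, had 27.1, 25.1 and 32.7 CPM at 6 °C, against 1676, 1697 and 1373 CPM at 25 °C, a log2 fold change of -5.80 ± 0.50. CHLM (DN49369_c0_g2), the methyltransferase of the step before it, fell to 9 ± 0.814 CPM at 6 °C, against 107 ± 9.74 CPM at 25 °C. The riser was HEMC (DN50185_c1_g2), an early enzyme shared with heme synthesis, with 113 ± 22.5 CPM at 6 °C, against 45.8 ± 6.73 CPM at 25 °C. In the breakdown list 7 of 20 genes rose and 6 fell. SGR (DN38584_c0_g5), the magnesium dechelatase that commits chlorophyll a to breakdown, had 1082, 1181 and 728 CPM at 6 °C, against 0.708, 0.423 and 2.48 CPM at 25 °C. PPH (DN57438_c4_g3), which removes the phytol tail in the next step, had 192, 179.7 and 143 CPM at 6 °C, against 15.6, 16.8 and 14.6 CPM at 25 °C (log2 fold change 3.45 ± 0.33, edgeR quasi-likelihood adjusted p = 2.12e-07). The breakdown genes that fell included SGRL (DN55114_c3_g1), a relative of SGR, with 0.515 ± 0.335 CPM at 6 °C, against 40.8 ± 5.06 CPM at 25 °C, and CLH1 (DN46675_c1_g2), a chlorophyllase, with 6.35 ± 2.97 CPM at 6 °C, against 81.2 ± 0.588 CPM at 25 °C. The transcription factor GLK1 (DN40738_c0_g2), which in Arabidopsis and maize switches on antenna and chlorophyll genes, had 10.2, 11.7 and 12.9 CPM at 6 °C, against 196, 151 and 145 CPM at 25 °C, a log2 fold change of -3.82 ± 0.62.

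Photoprotection genes did not move as a block. Of 12 tested genes 1 rose and 6 fell. PSBS (DN34330_c2_g1), which triggers the release of excess light energy as heat, had 1840.2, 1669.6 and 1839 CPM at 6 °C, against 1489, 1938 and 1471 CPM at 25 °C, so the groups overlapped (log2 fold change 0.13 ± 0.22, and 1.17 with quantile normalisation, which passed). The early light-induced protein ELIP1 (DN44614_c2_g1), thought to bind free chlorophyll, had 107, 75.1 and 127 CPM at 6 °C, against 5.95, 21.5 and 7.65 CPM at 25 °C, and rose. In the xanthophyll cycle the de-epoxidase VDE1 (DN47636_c0_g1), which makes zeaxanthin, fell to 29.8 ± 2.56 CPM at 6 °C, against 152 ± 15.4 CPM at 25 °C. Zeaxanthin epoxidase (DN54425_c1_g1), which runs the opposite way, fell to 34.5 ± 5.95 CPM at 6 °C, against 133 ± 14.6 CPM at 25 °C. SEP1 (DN42873_c0_g1), a one-helix relative of the antenna proteins, had 97.6 ± 7.7 CPM at 6 °C, against 68.4 ± 6.58 CPM at 25 °C, and did not pass the fold minimum.

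Carotenoid genes mostly fell, and most plastid isoprenoid genes did not pass the test. Of 26 carotenoid genes 17 fell and 2 rose. The hydroxylase of beta-carotene (DN39799_c0_g3) had 2.65 ± 0.323 CPM at 6 °C, against 127 ± 53.3 CPM at 25 °C, and the desaturase of phytoene (DN44505_c0_g7) had 0.173 ± 0.203 CPM at 6 °C, against 19.2 ± 4.91 CPM at 25 °C. The NCED gene (DN38179_c0_g1), whose enzyme cuts carotenoids to open the abscisic acid pathway, rose with 50.9, 61.7 and 15.2 CPM at 6 °C, against 7.22, 3.45 and 0.872 CPM at 25 °C. In the plastid isoprenoid pathway the entry enzyme CLA1 (DN55342_c1_g1) fell to 247 ± 31 CPM at 6 °C, against 1588 ± 112 CPM at 25 °C, while a second form of that enzyme (DN38310_c0_g1) rose to 191 ± 37.5 CPM at 6 °C, against 19.7 ± 24.4 CPM at 25 °C. Of the 11 tested genes of the pathway 2 rose and 3 fell.

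Carbon fixation genes fell too, with a median closer to 0 than that of the antenna. Of 34 Calvin cycle genes 19 fell and 0 rose, with a median of -1.21, and the list took 1.21 ± 0.0592% of counts at 6 °C, against 2.9 ± 0.122% at 25 °C. A transketolase (DN53430_c0_g3), which shuffles sugars in the regeneration phase, had 76.5, 67.4 and 79.3 CPM at 6 °C, against 465, 410.0 and 359 CPM at 25 °C. The rubisco small subunit RBCS (DN57201_c1_g3) had 5742, 5216 and 5643 CPM at 6 °C, against 12563, 11658 and 10759 CPM at 25 °C. Its call depended on the scaling, at -0.97 with DESeq2 size factors and 0.97 with quantile normalisation in place of -1.08 ± 0.33. In photorespiration, which salvages the by-product of rubisco's oxygen reaction, 15 of 35 genes fell and 4 rose, the rises numbering 1 without 25 °C replicate 1 or 3 and 2 without 6 °C replicate 3. GLYK (DN52436_c0_g1), the kinase that returns glycerate to the Calvin cycle, fell to 19.4 ± 1.41 CPM at 6 °C, against 109 ± 3.22 CPM at 25 °C.

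Most starch synthesis genes fell, and starch breakdown genes moved both ways. Of 17 starch synthesis genes 10 fell and 1 rose. WAXY (DN54513_c1_g1), the granule-bound synthase that makes amylose, had 201, 191 and 200.1 CPM at 6 °C, against 2546, 2492 and 2778 CPM at 25 °C, a log2 fold change of -3.72 ± 0.29 (edgeR quasi-likelihood adjusted p = 2.77e-08). In the breakdown list 10 of 39 rose and 8 fell (25.6% and 20.5%, against 21.3% and 27.3% of genes with a plant name). Both named forms of beta-amylase BAM1, which frees maltose, rose: DN54800_c0_g1 had 98.6, 83.5 and 40.4 CPM at 6 °C, against 0.566, 1.63 and 0.939 CPM at 25 °C, and DN49665_c1_g1 had 31.6 ± 14.2 CPM at 6 °C, against 0.677 ± 0.127 CPM at 25 °C. AMY3 (DN52256_c0_g2), an alpha-amylase of the chloroplast, fell to 38.1 ± 4.59 CPM at 6 °C, against 102 ± 1.6 CPM at 25 °C.

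Most genes of trehalose metabolism rose. Trehalose 6-phosphate is a signal of sugar status, made by TPS and removed by TPP enzymes. The 30 tested genes had 21 rises, 3 falls and a median log2 fold change of 3.37, and the list took 0.242, 0.223 and 0.165% of counts at 6 °C, against 0.0281, 0.0241 and 0.027% at 25 °C. TPPG (DN51509_c0_g1), a phosphatase, had 591, 462 and 367 CPM at 6 °C, against 9.06, 9.61 and 12.4 CPM at 25 °C, a log2 fold change of 5.51 ± 0.42. TPS8 (DN57040_c3_g2), a synthase-like protein of a class not known to make the sugar itself, rose to 38.8 ± 12.8 CPM at 6 °C, against 2.21 ± 0.775 CPM at 25 °C, while TPS6 (DN53078_c0_g1) of the same class fell to 28 ± 1.42 CPM at 6 °C, against 71.9 ± 12.6 CPM at 25 °C. Raffinose genes followed, with 11 of 17 risen and 1 fallen. A galactinol synthase, GOLS1 (DN50002_c0_g2), which makes the donor sugar for raffinose, had 758, 455 and 358 CPM at 6 °C, against 5.52, 6.71 and 6.24 CPM at 25 °C. RFS (DN48583_c0_g2), raffinose synthase, had 476, 182 and 182 CPM at 6 °C, against 0.425, 0.786 and 0.403 CPM at 25 °C, and the libraries at 6 °C were uneven.

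Sugar transporters and sucrose genes moved both ways. Of 40 sugar transporters 8 rose (20%) and 14 fell (35%), with a median of -0.54. Of 32 sucrose genes 8 rose and 8 fell, 25% each, close to the shares of genes with a plant name. STP13 (DN57281_c1_g1), a hexose importer of the plasma membrane, had 1130.0, 1416 and 803 CPM at 6 °C, against 13.6, 17.8 and 18.9 CPM at 25 °C, and a second form (DN54680_c1_g3) had 819 ± 213 CPM at 6 °C, against 16.1 ± 1.53 CPM at 25 °C. The triose phosphate translocator TPT (DN55454_c3_g1), which exports fixed carbon from the chloroplast, fell to 36.7 ± 5.44 CPM at 6 °C, against 140.4 ± 11 CPM at 25 °C. Sucrose synthase with the most counts (DN54386_c0_g2), which cleaves sucrose in sink tissue, fell to 30.5 ± 6.51 CPM at 6 °C, against 282 ± 28.6 CPM at 25 °C, and a cell wall invertase (DN39702_c0_g5), another sucrose-cleaving enzyme, rose with 57.6, 65.2 and 57.2 CPM at 6 °C, against 8.56, 5.86 and 5.84 CPM at 25 °C. Of 75 glycolysis and fermentation genes 36 rose and 11 fell, and the list took 0.731 ± 0.0173% of counts at 6 °C, against 0.229 ± 0.00742% at 25 °C. A cytosolic pyruvate kinase (DN35441_c0_g2), the last enzyme of glycolysis, had 70.3, 57.7 and 52.3 CPM at 6 °C, against 0.425, 0.302 and 0.738 CPM at 25 °C, a log2 fold change of 6.93 ± 0.45. GAPC2 (DN52525_c0_g1), the cytosolic glyceraldehyde-3-phosphate dehydrogenase, rose to 1696 ± 82.7 CPM at 6 °C, against 447 ± 12.3 CPM at 25 °C.

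In mitochondria most genes of the main respiratory chain did not pass, while several bypass enzymes did. Of 105 respiratory chain genes 5 rose, 12 fell and 88 did not pass. Among the bypass genes, which carry electrons without pumping protons, 6 of 14 rose and 3 fell. The alternative oxidase AOX1A (DN41826_c0_g1) had 75.3, 69.1 and 72.4 CPM at 6 °C, against 1.84, 0.846 and 1.61 CPM at 25 °C, and the internal dehydrogenase NDA1 (DN50233_c1_g1) had 131, 155 and 135 CPM at 6 °C, against 2.05, 2.12 and 1.95 CPM at 25 °C. External dehydrogenases NDB1 (DN47171_c0_g1) and NDB3 (DN54240_c2_g2) rose with log2 fold changes of 3.53 ± 0.29 and 3.15 ± 0.28. AOX2 (DN46758_c5_g3), another oxidase, had 31.9 ± 3.29 CPM at 6 °C, against 43.9 ± 1.16 CPM at 25 °C, and did not pass, and NDA2 (DN48649_c0_g1) fell to 17.6 ± 0.155 CPM at 6 °C, against 45.9 ± 2.85 CPM at 25 °C.

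Both named genes that open putrescine synthesis rose. Putrescine, the simplest plant polyamine, can be made from arginine by arginine decarboxylase. SPE2 (DN50349_c0_g3), named arginine decarboxylase 2, had 679, 668 and 449 CPM at 6 °C, against 5.88, 8.4 and 7.58 CPM at 25 °C, and ADC1 (DN54180_c0_g3) had 254, 239.9 and 174 CPM at 6 °C, against 2.34, 2.78 and 3.09 CPM at 25 °C, with log2 fold changes of 6.36 ± 0.51 and 6.34 ± 0.57. PAO4 (DN47611_c0_g3), which oxidises polyamines, rose to 527 ± 57.8 CPM at 6 °C, against 97 ± 7.53 CPM at 25 °C. Of 18 proline and polyamine genes 9 rose and 2 fell. In nitrogen assimilation few genes passed, with 2 of 25 risen and 6 fallen, the chloroplast glutamine synthetase (DN55633_c0_g1) at 134 ± 10.9 CPM at 6 °C, against 426 ± 52.8 CPM at 25 °C. Of 86 mineral transporters 22 rose and 31 fell. HAK5 (DN41670_c0_g3), a high-affinity potassium importer, had 122, 126 and 89.3 CPM at 6 °C, against 0.283, 0 and 0.604 CPM at 25 °C, and SULTR3;3 (DN51916_c0_g1), of the sulfate transporter family, fell to 43.2 ± 5.91 CPM at 6 °C, against 358 ± 38.2 CPM at 25 °C.

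Most small heat shock protein genes rose at 6 °C. These chaperones bind unfolding proteins and keep them soluble. The 32 tested genes had 22 rises, 4 falls and a median log2 fold change of 5.74, and the list took 1.55, 0.87 and 0.982% of counts at 6 °C, against 0.069, 0.0667 and 0.0603% at 25 °C. HSP23.6 (DN46798_c1_g4), a mitochondrial form, had 3066, 2142 and 2537 CPM at 6 °C, against 12.2, 9.49 and 5.7 CPM at 25 °C. HSP21.9 (DN53372_c1_g1) had 1084, 624 and 612 CPM at 6 °C, against 0.991, 1.75 and 0.872 CPM at 25 °C, a log2 fold change of 9.31 ± 0.87 (edgeR quasi-likelihood adjusted p = 1.92e-07). HSP17.9A (DN41681_c1_g2), a cytosolic class I form, went the other way and fell to 34.2 ± 10.3 CPM at 6 °C, against 94.2 ± 14.6 CPM at 25 °C. Of 25 heat stress transcription factors, which bind the promoters of heat shock genes, 14 rose and 3 fell, the falls numbering 1 without 25 °C replicate 1. HSFA3 (DN54590_c1_g2) had 1095, 1018 and 989.9 CPM at 6 °C, against 21, 10.8 and 15.9 CPM at 25 °C, and HSFB2C (DN39711_c0_g3), of a class without an activation domain, had 218, 217 and 194 CPM at 6 °C, against 1.7, 0.725 and 1.48 CPM at 25 °C. HSFA1 (DN51163_c0_g5), of the class that opens the heat response, fell to 2.13 ± 0.496 CPM at 6 °C, against 11.8 ± 1.03 CPM at 25 °C. Among 123 larger chaperones and co-chaperones 40 rose and 17 fell. RBCX2 (DN57164_c0_g1), which assists the assembly of rubisco, rose to 94 ± 18.1 CPM at 6 °C, against 15.4 ± 0.833 CPM at 25 °C, and the dnaJ homolog with the most counts (DN49416_c1_g2) had 2213 ± 130.0 CPM at 6 °C, against 2282 ± 272 CPM at 25 °C, with overlapping groups. It passed only under quantile normalisation, where its log2 fold change was 1.12.

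**Figure D3:**
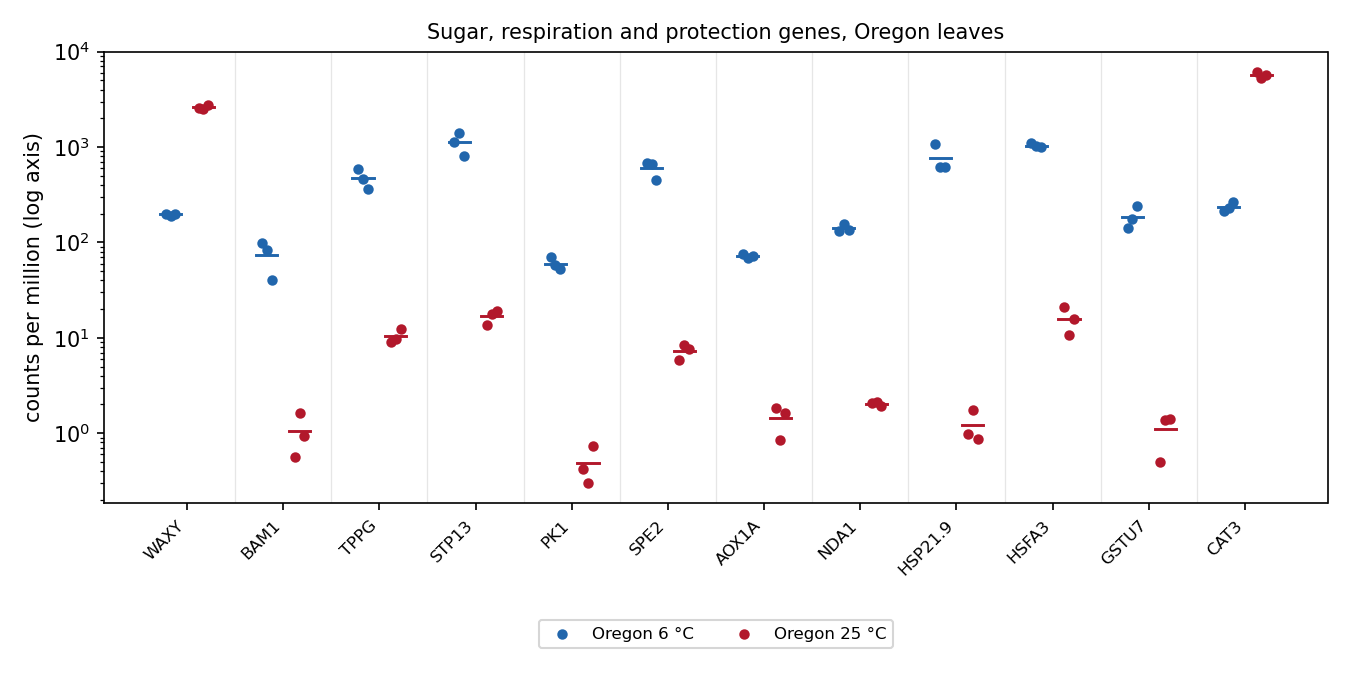
CPM (log axis) of 12 genes of sugar, respiration, chaperone and detoxification metabolism in each Oregon library, with 6 °C points to the left of 25 °C points for each gene and a bar at each group mean. PK1 is the cytosolic pyruvate kinase and BAM1 is DN54800_c0_g1. The groups do not overlap in any of the 12 genes. CAT3 and WAXY are lower at 6 °C and the other 10 are higher.

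Dehydration and cold-named proteins gave mixed counts. Of 7 late embryogenesis and dehydrin genes, proteins that protect cells as water is lost, 3 rose and 1 fell. LEA5 (DN52422_c2_g1) had 1171, 1119 and 947 CPM at 6 °C, against 69.7, 55.5 and 71.1 CPM at 25 °C. Of 13 genes named for cold in other plants 3 rose and 1 fell. HVA22I (DN54388_c1_g2), of a stress-induced membrane protein family first described in barley, had 88, 58.4 and 69.2 CPM at 6 °C, against 0.212, 0.423 and 2.55 CPM at 25 °C. Of the cold-regulated membrane proteins COR413PM2, DN43495_c0_g2 rose to 18.7 ± 1.87 CPM at 6 °C, against 1.84 ± 0.567 CPM at 25 °C, and DN38357_c2_g3 had 49.1 ± 4.03 CPM at 6 °C, against 78 ± 8.83 CPM at 25 °C, and did not pass.

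More enzymes against reactive oxygen fell than rose, and more glutathione transferases rose than fell. Of 40 catalase, peroxidase and superoxide dismutase genes 3 rose and 13 fell, and the list took 0.236 ± 0.0229% of counts at 6 °C, against 0.799 ± 0.0419% at 25 °C. CAT3 (DN47565_c0_g2), the catalase with the most counts, had 212, 229.8 and 264 CPM at 6 °C, against 6113, 5253 and 5720.0 CPM at 25 °C. APX8 (DN38778_c3_g1), a chloroplast ascorbate peroxidase, fell to 7.64 ± 0.845 CPM at 6 °C, against 74.3 ± 10.8 CPM at 25 °C. Another catalase, CAT1 (DN48881_c0_g2), rose to 29.6 ± 1.57 CPM at 6 °C, against 9.44 ± 1.16 CPM at 25 °C. Of 29 glutathione S-transferases, which tag toxic compounds with glutathione, 14 rose and 3 fell, the falls numbering 5 without 6 °C replicate 1. GSTU7 (DN46627_c1_g1) had 143, 175 and 239 CPM at 6 °C, against 0.495, 1.39 and 1.41 CPM at 25 °C, and GSTU17 (DN47042_c0_g2) had 739.7, 628 and 626 CPM at 6 °C, against 126, 113 and 123 CPM at 25 °C, while the chloroplast GSTF8 (DN52413_c2_g1) fell to 47.9 ± 6.16 CPM at 6 °C, against 321 ± 80.7 CPM at 25 °C. Of 86 thioredoxin, glutaredoxin and peroxiredoxin genes 7 rose and 31 fell. GRXC9 (DN50120_c1_g1), a glutaredoxin that binds TGA factors in Arabidopsis, rose to 153 ± 45.6 CPM at 6 °C, against 7.25 ± 2.9 CPM at 25 °C. Among 143 cytochrome P450 genes, oxidases of many pathways, 68 fell against 20 that rose. CYP710A11 (DN40383_c0_g1), whose family makes stigmasterol, had 532, 545 and 338 CPM at 6 °C, against 4.6, 4.23 and 2.48 CPM at 25 °C.

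Desaturase and fatty acid synthesis genes moved both ways, and most oil genes rose. FAD7 (DN57008_c1_g1), the chloroplast desaturase that adds the third double bond to fatty acids, had 154, 167 and 108 CPM at 6 °C, against 0.849, 1.33 and 0.47 CPM at 25 °C, and the FAD12 desaturase (DN46286_c0_g5), which adds the second, fell to 12.9 ± 1.19 CPM at 6 °C, against 133 ± 25.7 CPM at 25 °C. Over the desaturase list 8 of 28 rose and 9 fell (28.6% and 32.1%, against 21.3% and 27.3% of genes with a plant name). Of 33 genes of plastid fatty acid synthesis 6 rose and 6 fell, 18.2% each. The plastid acyl carrier protein ACP1 (DN56572_c0_g1), which holds growing fatty acids, had 1305, 1374 and 1165 CPM at 6 °C, against 98, 111 and 104 CPM at 25 °C. SDP1 (DN55287_c0_g1), a lipase of stored oil, had 228, 391 and 87.9 CPM at 6 °C, against 0, 0.363 and 0.738 CPM at 25 °C, with libraries at 6 °C far apart, and DGAT1 (DN34690_c0_g1), which makes oil, rose to 21.8 ± 0.999 CPM at 6 °C, against 3.24 ± 0.427 CPM at 25 °C. Together 10 of 17 oil genes rose and 3 fell.

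Ethylene and jasmonate lists held a larger share of rises than the 21.3% over genes with a plant name. Of 30 ethylene genes 14 rose and 6 fell, and of 53 jasmonate genes 34 rose and 9 fell. ACO1 (DN50246_c0_g1), which makes ethylene in the last step, had 2150.1, 2428 and 1689.5 CPM at 6 °C, against 5.03, 7.37 and 15.4 CPM at 25 °C. EBF1 (DN54700_c2_g2), an F-box protein that targets the ethylene factor EIN3 for breakdown, rose to 139.5 ± 20.2 CPM at 6 °C, against 32.3 ± 0.467 CPM at 25 °C. OPR1 (DN53763_c0_g2), a reductase of the 12-oxophytodienoate family, had 209.9, 248 and 269 CPM at 6 °C, against 5.59, 7.37 and 7.78 CPM at 25 °C, a log2 fold change of 5.13 ± 0.34 (edgeR quasi-likelihood adjusted p = 4.3e-09). Not all jasmonate genes rose. The lipoxygenase with the most counts, LOX2.1 (DN55215_c3_g3), fell with 237, 322 and 183 CPM at 6 °C, against 410.4, 466 and 984 CPM at 25 °C. That call rested on 25 °C replicate 3, without which its log2 fold change was -0.87. The conjugating enzyme GH3.5, named JAR1 (DN54853_c1_g5), which makes the active hormone, fell to 10.3 ± 0.471 CPM at 6 °C, against 145 ± 0.952 CPM at 25 °C.

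Other hormone lists held opposed members. Abscisic acid signalling genes rose in 5 and fell in 7 of 26 cases (19.2% and 26.9%), close to the shares of genes with a plant name. Gibberellin genes rose in 11 and fell in 10 of 33 (33.3% and 30.3%), and cytokinin genes rose in 8 and fell in 14 of 36 (22.2% and 38.9%). The rises of cytokinin genes numbered 5 without replicate 2 of either temperature. For abscisic acid, the receptor PYL4 (DN32491_c1_g9) had 113, 95.1 and 87.1 CPM at 6 °C, against 2.97, 1.15 and 2.01 CPM at 25 °C, and rose. SRK2E (DN40722_c1_g5), a kinase of guard cells, fell to 4.52 ± 0.74 CPM at 6 °C, against 27.8 ± 0.725 CPM at 25 °C. Of the hydroxylases that destroy the hormone, CYP707A1 (DN48615_c0_g1) rose to 26.6 ± 3.44 CPM at 6 °C, against 1.08 ± 0.445 CPM at 25 °C, and CYP707A4 (DN42218_c0_g2) fell to 1.42 ± 0.0474 CPM at 6 °C, against 26 ± 4.47 CPM at 25 °C. Of 72 PP2C phosphatases, a family that includes brakes on abscisic acid signalling, 26 rose and 13 fell. Auxin genes rose in 29 and fell in 40 of 122 cases (23.8% and 32.8%), close to the shares of genes with a plant name. The influx carrier DN42557_c0_g5, named auxin transporter-like protein 1, had 6.11 ± 1.09 CPM at 6 °C, against 125 ± 18.3 CPM at 25 °C, and SAUR32 (DN40333_c1_g4), of the small auxin-up RNA family, rose to 397 ± 65.5 CPM at 6 °C, against 19.3 ± 3.68 CPM at 25 °C. For gibberellin, the receptor GID1C (DN39752_c0_g2) had 202, 222 and 180.3 CPM at 6 °C, against 10.8, 11.3 and 12.5 CPM at 25 °C, while the gibberellin-regulated peptide GASA1 (DN38282_c1_g2) had 3.29, 2.89 and 5.25 CPM at 6 °C, against 1951, 883 and 1058 CPM at 25 °C. For cytokinin, LOG1 (DN50600_c2_g1), which releases the active hormone, rose to 229.7 ± 8.7 CPM at 6 °C, against 15.5 ± 2.07 CPM at 25 °C, and CKX7 (DN49868_c0_g1), which destroys it, fell to 1.01 ± 0.54 CPM at 6 °C, against 29.8 ± 6.08 CPM at 25 °C.

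Some transcription factor families had more rises than falls, and others the reverse. The 59 tested WRKY genes had 31 rises and 10 falls. The 54 NAC genes had 22 rises and 3 falls, and the 71 ERF genes had 32 rises and 14 falls. ERF110 (DN33949_c0_g1) had 443, 458 and 346 CPM at 6 °C, against 0.283, 0.302 and 0.403 CPM at 25 °C, a log2 fold change of 10.27 ± 0.66. CRF3 (DN46960_c1_g1), a factor tied to cytokinin and lateral root growth in the cold in Arabidopsis, had 269, 302 and 336 CPM at 6 °C, against 3.11, 1.99 and 3.42 CPM at 25 °C. NAC100 (DN46041_c0_g3) rose to 41.8 ± 4.13 CPM at 6 °C, against 0.447 ± 0.186 CPM at 25 °C. ZAT5 (DN48122_c1_g1), a zinc finger repressor, had 77.3, 65.1 and 41.7 CPM at 6 °C, against 0, 0 and 0.201 CPM at 25 °C. In the ICE1 and DREB list, named for the main cold regulators of Arabidopsis, 5 of 10 rose and 5 fell. The ICE1 gene with the most counts, SCRM (DN53571_c0_g2), had 213, 195 and 188 CPM at 6 °C, against 77.4, 85.2 and 71.6 CPM at 25 °C, and DREB3 (DN57107_c1_g3) fell to 0.282 ± 0.307 CPM at 6 °C, against 6.17 ± 1.45 CPM at 25 °C.

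MYB, bHLH, Dof and CONSTANS-like factors fell in larger numbers than they rose, as did genes with a plant name (21.3% risen, 27.3% fallen). MYB factors rose in 24 (28.9%) and fell in 36 (43.4%) of 83 cases. The bHLH factors rose in 27 (26.7%) and fell in 42 (41.6%) of 101. Both families thus held larger shares of rises and of falls than genes with a plant name. The zinc finger list of Dof, GATA and CONSTANS-like factors rose in 10 (13%) and fell in 32 (41.6%) of 77. UNE10 (DN55357_c0_g1), a phytochrome-interacting bHLH in Arabidopsis, had 50.2, 63 and 81 CPM at 6 °C, against 515, 901 and 656 CPM at 25 °C, and PIF3 (DN47113_c0_g1), a further factor of that group, fell to 5.8 ± 0.541 CPM at 6 °C, against 87.8 ± 5.12 CPM at 25 °C. MYB44 (DN39063_c0_g1), a stress factor tied to abscisic acid in Arabidopsis, rose to 516 ± 76.6 CPM at 6 °C, against 14 ± 3.83 CPM at 25 °C. DOF3.4 (DN52009_c1_g7), a cell cycle factor in Arabidopsis, had 456, 619 and 437 CPM at 6 °C, against 11.2, 12.8 and 10.7 CPM at 25 °C. HOX16 (DN47981_c0_g1), a homeobox-leucine zipper factor, had 25.1, 30.8 and 35.1 CPM at 6 °C, against 669, 647 and 508 CPM at 25 °C. TCP13 (DN51646_c0_g2), of a family that sets leaf shape, fell to 8.48 ± 1.34 CPM at 6 °C, against 124 ± 15.9 CPM at 25 °C.

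**Figure D4:**
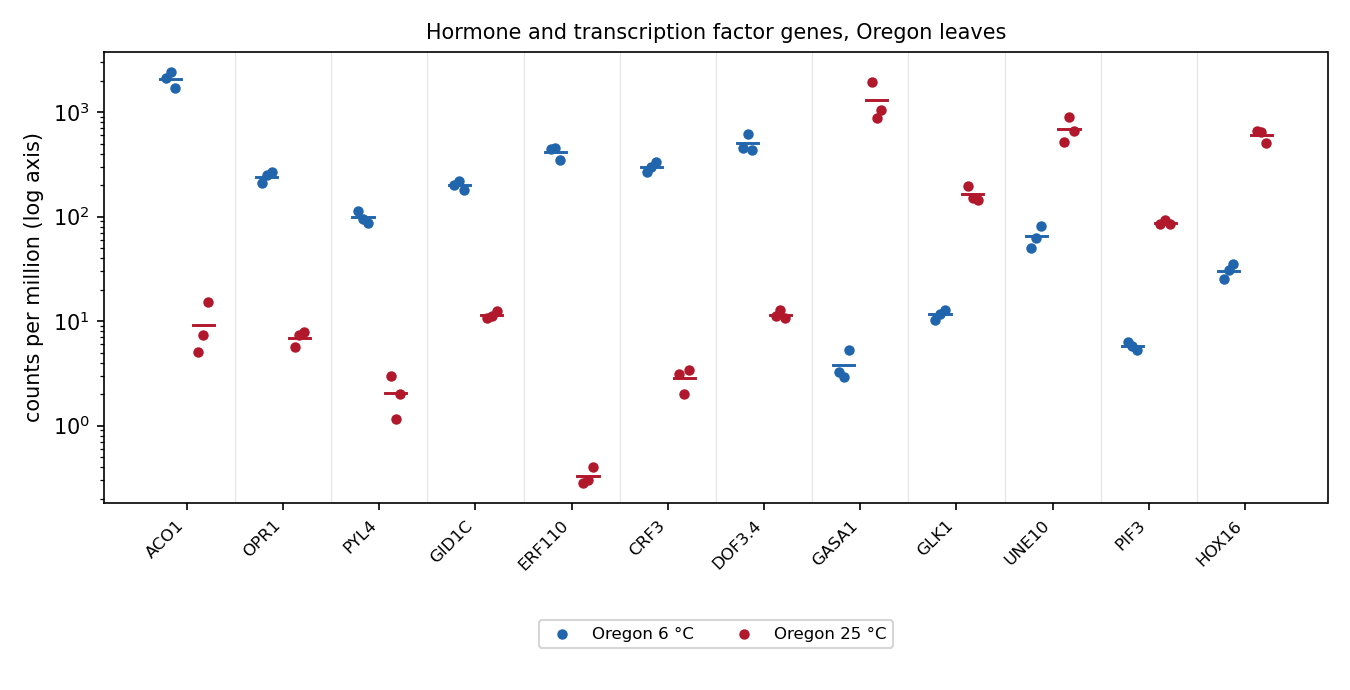
CPM (log axis) of 12 hormone and transcription factor genes in each Oregon library, with 6 °C points to the left of 25 °C points for each gene and a bar at each group mean. GLK1, UNE10, HOX16, PIF3 and GASA1 are lower at 6 °C and the other 7 are higher.

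Clock and light sensing genes were measured with no collection hour on record. Of 26 clock genes 4 rose and 11 fell. The morning factor LHY fell in both of its forms, DN37685_c0_g4 to 47.2 ± 2.74 CPM at 6 °C, against 217 ± 9.2 CPM at 25 °C, and DN52605_c1_g1 to 23.7 ± 1.13 CPM at 6 °C, against 152 ± 4.75 CPM at 25 °C. The evening protein GIGANTEA (DN56493_c0_g1) had 440.2, 424 and 400.4 CPM at 6 °C, against 379, 420.0 and 406 CPM at 25 °C, groups that overlapped. RVE1 (DN52212_c0_g1), a relative of LHY, rose to 25.6 ± 2.65 CPM at 6 °C, against 2.78 ± 1.52 CPM at 25 °C. Phytochrome B (DN55054_c0_g3), a red light and temperature sensor in Arabidopsis, fell to 1.52 ± 0.548 CPM at 6 °C, against 15.3 ± 1.34 CPM at 25 °C.

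Receptor families at the cell surface and resistance proteins inside the cell differed in direction by count. Lectin, wall-associated and cysteine-rich receptor kinases rose in 91 and fell in 50 of 238 cases, while leucine-rich repeat kinases rose in 38 and fell in 81 of 195. Disease resistance genes of the NLR kind, which sense pathogen proteins inside the cell, rose in 43 and fell in 170 of 379, and took 0.243, 0.23 and 0.234% of counts at 6 °C, against 0.537, 0.513 and 0.571% at 25 °C. RGA1 (DN57328_c4_g1), the NLR gene with the most counts, had 74.9, 63.2 and 65.7 CPM at 6 °C, against 487, 408 and 475 CPM at 25 °C, and RPM1 (DN56386_c1_g2) went the other way with 115, 91.9 and 77.4 CPM at 6 °C, against 1.7, 2.36 and 2.08 CPM at 25 °C. The G-type lectin kinase DN57049_c1_g1 rose to 517 ± 61.1 CPM at 6 °C, against 47.2 ± 2.97 CPM at 25 °C, and CRK11 (DN50394_c0_g1), a cysteine-rich kinase, fell to 5.63 ± 0.536 CPM at 6 °C, against 286 ± 24.3 CPM at 25 °C. Endochitinase EP3 (DN52471_c0_g1), which cuts fungal chitin, had 420.4, 558 and 322 CPM at 6 °C, against 0.212, 0.181 and 1.61 CPM at 25 °C.

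Calcium genes rose in 82 and fell in 51 of 250 cases (32.8% and 20.4%, against 21.3% and 27.3% of genes with a plant name). CML45 (DN42729_c1_g2), a calmodulin-like sensor, had 76.2, 46.6 and 37.9 CPM at 6 °C, against 0.637, 0.302 and 1.07 CPM at 25 °C, and CAX1a (DN51244_c1_g2), which loads calcium into the vacuole, had 38.9, 34.6 and 26.1 CPM at 6 °C, against 877, 855 and 837 CPM at 25 °C, a log2 fold change of -4.69 ± 0.22 (edgeR quasi-likelihood adjusted p = 1.82e-10). CAMTA factors, calcium-responsive activators of cold genes in Arabidopsis, had 1 rise and 0 falls among 9 genes, and 0 rises without replicate 2 of either temperature. CMTA3 (DN53528_c0_g2) had 94.2 ± 1.95 CPM at 6 °C, against 113 ± 4.79 CPM at 25 °C. A MAP kinase kinase kinase 18-like gene (DN54316_c0_g1) had 181, 174 and 73.8 CPM at 6 °C, against 0.779, 0.242 and 0.537 CPM at 25 °C.

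Most called genes of cell wall building and the leaf surface fell. Of 135 cellulose and hemicellulose genes 73 fell and 11 rose, of 92 pectin genes 54 fell and 13 rose, and cuticle genes, wax enzymes included, had 76 falls and 13 rises among 139. A pectinesterase of the PME35 type (DN50017_c0_g1), which removes methyl groups from pectin, had 1.34, 2.09 and 2.34 CPM at 6 °C, against 790.4, 756 and 720.2 CPM at 25 °C. CESA8 (DN47563_c0_g1), named for a cellulose synthase of secondary walls, had 105, 105 and 98.4 CPM at 6 °C, against 462, 636 and 526 CPM at 25 °C. ABCG11 (DN53501_c2_g3), which exports wax and cutin, fell to 40.9 ± 7.54 CPM at 6 °C, against 311 ± 12.7 CPM at 25 °C. Among lipid transfer proteins, which are thought to carry wax to the surface, 11 of 19 fell and 0 rose. KCS11 (DN42626_c0_g3), an elongase of very long fatty acids, was an exception with 260.0, 212 and 145 CPM at 6 °C, against 4.74, 5.44 and 9.12 CPM at 25 °C. Xylem markers fell in 15 of 18 tested cases and rose in 0, taking 0.0214 ± 0.00163% of counts at 6 °C, against 0.148 ± 0.0132% at 25 °C, and CESA8 is also 1 of them. The part of that xylem share in the wall counts was not tested.

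Among named growth genes inhibitors of the cell cycle rose, and a histone and a kinesin fell. KRP5 (DN55391_c1_g3), an inhibitor of cyclin-dependent kinases, had 642, 812 and 686 CPM at 6 °C, against 34.6, 36.4 and 32.7 CPM at 25 °C, and a second inhibitor (DN32283_c0_g1) had 283 ± 46.2 CPM at 6 °C, against 29 ± 2.77 CPM at 25 °C. Over the cell cycle list 13 of 63 rose and 20 fell, 20.6% and 31.7%, close to the shares of genes with a plant name. A histone H4 (DN39052_c2_g1), needed as DNA is copied, fell to 12.7 ± 1.95 CPM at 6 °C, against 105 ± 2.91 CPM at 25 °C. KIN7F (DN32355_c0_g1), a kinesin motor, had 12.5, 16.1 and 15.4 CPM at 6 °C, against 226, 296 and 219 CPM at 25 °C. Water channels moved both ways, with 8 risen and 15 fallen of 37: the plasma membrane channel PIP2-1 (DN42198_c1_g2) rose to 1372 ± 121 CPM at 6 °C, against 455 ± 44.5 CPM at 25 °C, and PIP2-7 (DN33312_c2_g5) fell to 3.04 ± 0.446 CPM at 6 °C, against 52.4 ± 4.7 CPM at 25 °C. Metallothionein type 2 (DN41491_c0_g7), a small metal-binding protein, had 1355, 1099 and 1372 CPM at 6 °C, against 6695, 4943 and 4838 CPM at 25 °C. It missed the fold minimum under quantile normalisation, at -0.80.

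Most ribosomal protein genes of the cytosol and of the chloroplast did not pass the test. Of 250 cytosolic ones 61 rose (24.4%, against 21.3% of genes with a plant name), 15 fell and 174 did not pass. The falls numbered 23 with quantile normalisation and 23 without 25 °C replicate 1, and 9 without 25 °C replicate 3 or 6 °C replicate 1. Of 53 chloroplast ones 1 rose, 19 fell and 33 did not pass. The median log2 fold changes were 0.53 for the cytosolic and -0.77 for the chloroplast list, against -0.19 over genes with a plant name. RPL19A (DN56216_c0_g2), a protein of the large cytosolic subunit, had 349, 322 and 428 CPM at 6 °C, against 23.7, 15.7 and 18 CPM at 25 °C, and chloroplast RPL21 (DN38223_c0_g1) fell to 16.5 ± 2.31 CPM at 6 °C, against 97.1 ± 9.44 CPM at 25 °C. Elongation factor 1-alpha (DN50537_c0_g1), which brings charged tRNA to the ribosome, rose to 1539.7 ± 46.9 CPM at 6 °C, against 339 ± 30.9 CPM at 25 °C. Pentatricopeptide repeat proteins, which process organelle RNA, rose in 38 and fell in 146 of 383 cases, with 24 rises without 25 °C replicate 2.

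Protein breakdown genes also split. Proteasome genes mostly did not pass the test, with 12 risen, 1 fallen and 73 not passed of 86, and took 0.445 ± 0.0358% of counts at 6 °C, against 0.255 ± 0.00493% at 25 °C. Proteases rose in 22 and fell in 76 of 155 cases. SBT3.11 (DN45648_c1_g2), a subtilisin-like protease, had 7.91, 9.45 and 7.58 CPM at 6 °C, against 523, 431 and 382 CPM at 25 °C, and APF1 (DN52432_c0_g1), an aspartyl protease, had 373, 249.6 and 213 CPM at 6 °C, against 10.4, 10.9 and 12.4 CPM at 25 °C. ATG8D (DN46491_c0_g2), which tags autophagy membranes, rose to 39.6 ± 3.27 CPM at 6 °C, against 6.6 ± 0.449 CPM at 25 °C. Of 7 genes named for senescence 4 fell and 0 rose, among them the cysteine protease SAG39 form DN52121_c0_g1 with 0.1 ± 0.127 CPM at 6 °C, against 11 ± 6.42 CPM at 25 °C.

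Transposon-related proteins were common in the table, and many had too few counts to test. Of 1749 such genes 750 were tested, of which 285 rose and 83 fell, with a median of 1.61. The list took 0.286, 0.275 and 0.27% of counts at 6 °C, against 0.137, 0.16 and 0.167% at 25 °C. A TX1-type transposon protein (DN48711_c0_g2) had 60.8, 62.7 and 46.6 CPM at 6 °C, against 0, 0.0604 and 0.0671 CPM at 25 °C, and an AC transposase (DN55299_c0_g1) had 2.37, 3.34 and 2.53 CPM at 6 °C, against 143, 240.0 and 185 CPM at 25 °C. Transcripts missing at 25 °C could pass the filter through the 6 °C libraries alone, so the risen members are partly fixed by the filter.

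Some transcripts had 0 counts, or almost none, in 1 of the groups. Where a group had 0 counts, the fold was bounded by setting that group's total to 3 counts, and this covers counting error only. The bounds use raw library totals, not the scaled library sizes behind the CPM. On the CPM scale those for rises would be lower and those for falls higher. A gene with 0 counts in a group passed the filter through other libraries, so such extremes are partly fixed by the filter. GH3.1 (DN40974_c4_g4), which ties auxin to amino acids, had 31.5, 60.7 and 28.2 CPM at 6 °C, against 0 counts at 25 °C, at least 756-fold higher by raw totals. The receptor kinase FER (DN55934_c5_g4), named for FERONIA, a sensor of wall integrity, had 22.8, 31.3 and 13.3 CPM at 6 °C, against 0 counts at 25 °C. By raw totals it was at least 418-fold higher. PUB23 (DN47613_c2_g3), which tags proteins with ubiquitin, had 41.2, 48.5 and 10.7 CPM at 6 °C, against 0 counts at 25 °C (at least 609-fold higher by raw totals). ABCG6 (DN47022_c1_g1), of a transporter family that lays down suberin, was uneven with 36.7, 51.1 and 3.43 CPM at 6 °C, against 0 counts at 25 °C. By raw totals it was at least 547-fold higher. In the other direction PRD1 (DN40092_c0_g3), named for a protein of meiotic DNA breaks, had 0 counts at 6 °C, against 13.8, 13.1 and 14.3 CPM at 25 °C, and was at least 200.03-fold lower at 6 °C. The kinase LECRK82 (DN42225_c0_g5) had 0 counts at 6 °C, against 28, 21.8 and 18.3 CPM at 25 °C, and was at least 330.2-fold lower. OFP2 (DN38509_c1_g2), a repressor of the ovate family that shapes organs, had 0.0608, 0 and 0 CPM at 6 °C, against 47.2, 62.7 and 30.2 CPM at 25 °C.

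Cell type markers were read to check the leaf label. Mesophyll markers took 0.629 ± 0.0405% of counts at 6 °C, against 2.11 ± 0.202% at 25 °C, and 0 rose and 10 fell of 14 tested. RBCS and the LHCII genes described above are among these markers and RBCS has the most counts, so the mesophyll values restate those genes in part and are no separate result. Phloem markers took 0.0135 ± 0.00132% of counts at 6 °C, against 0.00803 ± 0.001% at 25 °C, and 0 rose and 1 fell of 6. Epidermis markers took 0.0199 ± 0.000822% of counts at 6 °C, against 0.0184 ± 0.00169% at 25 °C, and 3 rose and 5 fell of 15. Root markers took 4.51e-05 ± 1.1e-05% of counts at 6 °C, against 0.000237 ± 5.96e-05% at 25 °C. Of the 2 tested, a Casparian strip factor (DN33157_c3_g4) had 0 counts at 6 °C and a root cap gene (DN46554_c0_g2) had 0 counts at 25 °C. Floral organ markers took 0.0125 ± 0.00154% of counts at 6 °C, against 0.00853 ± 0.000168% at 25 °C, and 5 of 10 rose and 4 fell. Members named APETALA 2 made up 6 of those 10, and the riser with the largest fold was AGL61 (DN37128_c0_g4), a MADS-box gene of the female gametophyte in Arabidopsis, with 37.7, 33.2 and 42.5 CPM at 6 °C, against 0.849, 0.846 and 1.27 CPM at 25 °C. Guard cell markers rose in 1 and fell in 7 of 19 cases. EPFL6 (DN47530_c0_g3), a secreted peptide of the family that spaces stomata, fell to 2.93 ± 0.306 CPM at 6 °C, against 58.7 ± 4.23 CPM at 25 °C.

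The response of Oregon was then set against that of Fantasy Love at the same step. The difference between the 2 fold changes was tested in the same model, and 4669 of 51670 genes passed (9.04%), with the Oregon response higher in 2052 (3.97%) and lower in 2617 (5.06%). These counts depended on single libraries. They came to 1145 and 1481 without Oregon 6 °C replicate 1, to 1226 and 1570 without Oregon 6 °C replicate 2, and to 1144 and 1645 without Oregon 25 °C replicate 1. Without Oregon 25 °C replicate 2 they were 1233 and 1825. Without Oregon 6 °C replicate 3 they were 1556 and 1609. Among Fantasy Love libraries, leaving out 6 °C replicate 3 gave 3462 and 3826, and leaving out 25 °C replicate 3 gave 1298 and 1646. In Fantasy Love at 6 °C, replicate 2 had Pearson correlations (log2 of CPM + 1, all tested genes) of 0.9077 and 0.8935 with the other two libraries, which had 0.9481 with each other, and without it the counts were 2248 and 2674.

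Most small heat shock genes were among those differences. Of 32 small heat shock genes 25 had a higher response in Oregon and 0 a lower one, against 4.34% and 8.16% of genes with a plant name, and of 123 larger chaperones the counts were 34 and 7, the lower count being 3 without Oregon 25 °C replicate 1. HSP21.9 (DN53372_c1_g1) averaged 773 ± 269 CPM at 6 °C, against 1.21 ± 0.478 CPM at 25 °C in Oregon, and 175 ± 127 CPM at 6 °C and 17.2 ± 17.2 CPM at 25 °C in Fantasy Love. The difference in log2 fold change was 5.96 ± 0.95 (edgeR quasi-likelihood adjusted p = 0.000924). For HSP23.6 (DN46798_c1_g4) Fantasy Love had 958 ± 684 CPM at 6 °C and 351 ± 229 CPM at 25 °C, and the difference was 6.69 ± 0.69. The heat stress factor HSFA3 (DN54590_c1_g2) had 1038 ± 584 CPM at 6 °C and 25 ± 1.84 CPM at 25 °C in Fantasy Love, a difference of 0.65 ± 0.59 that did not pass. In these 3 genes the SD at 6 °C was larger relative to the mean in Fantasy Love than in Oregon. By these means both small heat shock genes were higher at 6 °C and lower at 25 °C in Oregon than in Fantasy Love.

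**Figure D5:**
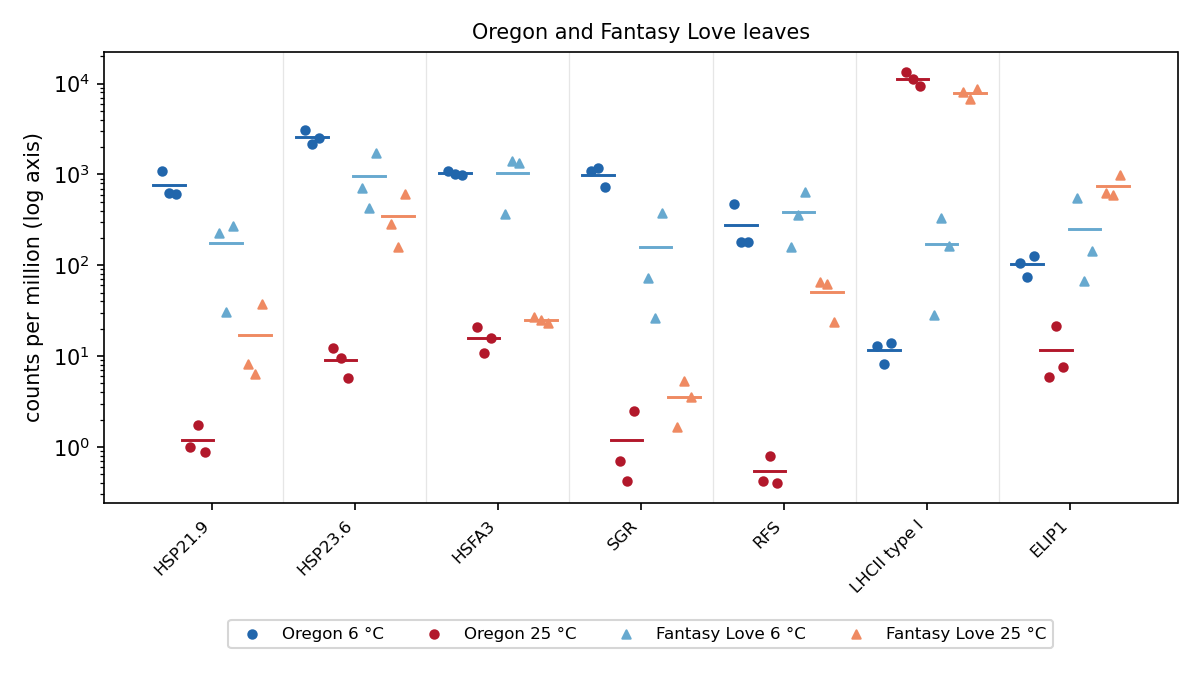
CPM (log axis) of 7 genes in the libraries of Oregon at 6 °C and 25 °C and of Fantasy Love at 6 °C and 25 °C, with a bar at each group mean. HSP21.9, HSP23.6, SGR and RFS had the higher response in Oregon and the LHCII type I gene the lower one. ELIP1 was lower at 6 °C than at 25 °C in Fantasy Love alone by its means, and the difference for HSFA3 did not pass the test.

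Most antenna genes also differed between the cultivars. Of 16 antenna genes 12 had a lower response in Oregon and 0 a higher one. For this list and those below, the shares over genes with a plant name were 8.16% lower and 4.34% higher. The LHCII type I gene (DN35270_c0_g1) had 11.7 ± 3.09 CPM at 6 °C, against 11368 ± 2021 CPM at 25 °C in Oregon, and 174 ± 152 CPM at 6 °C and 7831 ± 999 CPM at 25 °C in Fantasy Love, a difference of -4.43 ± 0.81. Of 20 chlorophyll breakdown genes 5 had a higher response in Oregon and 0 a lower one. Without Fantasy Love 6 °C replicate 3 the higher count was 8, and the lower count was 1 without Oregon 6 °C replicate 3 or any 1 of the 3 Fantasy Love libraries at 6 °C. SGR (DN38584_c0_g5) had 158 ± 189 CPM at 6 °C and 3.52 ± 1.83 CPM at 25 °C in Fantasy Love, and the Oregon response was higher by 4.21 ± 1.03. RFS (DN48583_c0_g2) had 385 ± 241 CPM at 6 °C and 50.8 ± 23.6 CPM at 25 °C there, and the difference was 6.07 ± 0.74. The RFS values of the Oregon libraries, given above, averaged less than these at both temperatures. Of 12 photoprotection genes 3 had a higher response in Oregon and 1 a lower one. ELIP1 (DN44614_c2_g1) had 252 ± 259 CPM at 6 °C and 739 ± 217 CPM at 25 °C in Fantasy Love, a difference of 4.69 ± 0.84. PSBS (DN34330_c2_g1), which overlapped in Oregon, had 1551 ± 456 CPM at 6 °C and 7614 ± 358 CPM at 25 °C in Fantasy Love, a difference of 2.42 ± 0.31. Proteases had a lower response in Oregon in 35 of 155 cases and a higher one in 2. The count of 2 was 5 without Fantasy Love 6 °C replicate 3, 4 without replicate 2 of that group, and 1 without any other single library except Fantasy Love 25 °C replicate 1, which left it at 2. BURP3 (DN52379_c0_g2), of a plant-specific secreted protein family, had 29.4 ± 13.3 CPM at 6 °C, against 418 ± 55.9 CPM at 25 °C in Oregon, and 54.4 ± 50.8 CPM at 6 °C and 0.0547 ± 0.0543 CPM at 25 °C in Fantasy Love, where it was higher at 6 °C, a difference of -13.56 ± 1.34 (edgeR quasi-likelihood adjusted p = 1.81e-05).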

How the data were processed

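Leaf RNA of 2 Anthurium andraeanum cultivars was sequenced at 3 temperature steps, 3 libraries each. Reads were trimmed with cutadapt 1.9, per the submitters' processing notes; for assembler, aligner and counter the tool is not given in the sources used here. The deposited table gives estimated counts, of which 4.21% have decimals, and TPM for 132108 assembled transcript groups, 34851 having a named protein match. Values were rounded and tested with edgeR 4.0.16 (R 4.3.3): TMM scaling, a filter of at least 10 counts (15 in total), quasi-likelihood fits of 6 group means over all 18 libraries, and Benjamini-Hochberg adjustment. The contrasts were Oregon 6 °C minus 25 °C, and that minus the same difference in Fantasy Love. CPM use TMM library sizes; the TPM values deposited by the authors were not needed. The fit was tested on simulated counts of 46045 genes, most of them unchanged. At an adjusted p below 0.05, without the fold minimum, it recovered 6.06% of 66 seeded log2 changes of 1. It recovered 41.8% of 67 changes of 2 and 92.5% of 67 changes of 4, with 4 false calls. A far smaller part of the genes was changed there than was called in the data, so these rates do not describe the comparison itself. Gene lists are patterns matched to protein names, and the members and lists were chosen with earlier results of these data known. Named genes are the 10 largest rises and 10 largest falls at 10 CPM or more without overlap between the groups. Also named are the highest member of each list and, at 10 CPM or more, the calls with the lowest adjusted p in each list. Members of lists of at most 15 and the largest cultivar differences were added, and the text prints part of all these. The ±SE of a log2 fold change is its size over the square root of F. Alternatives used DESeq2 1.42.0 and limma 3.58.1. Same-numbered libraries did not deviate together (residual correlations -0.027, -0.0141 and -0.0418), and the main fit did not pair them. The labels do not say whether a shared number marks a shared plant or batch.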

Additional observations from a re-analysis of the deposited data

Results flagged for a closer look

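Of the 9 genes whose cultivar difference is described above, 8 passed the test of the difference itself (Oregon minus Fantasy Love log2 fold change, edgeR quasi-likelihood test). Other named genes passed it too, among them CAX1a at -4.26 and KRP5 at 3.06, and are not followed here. Each of the 8 differences is given with its value when Fantasy Love 6 °C replicate 2 was left out. It was 6.69 (6.33) for HSP23.6 and 5.96 (5.44) for HSP21.9. It was 6.07 (6.00) for RFS and 4.21 (3.69) for SGR. For the photoprotection genes it was 2.42 (2.21) for PSBS and 4.69 (4.23) for ELIP1. The LHCII type I gene DN35270_c0_g1 had -4.43 (-3.56) and BURP3 had -13.56 (-14.11). All 8 passed under every alternative run. BURP3 was near 0 in Fantasy Love at 25 °C, so its fitted value depends on the prior count and is no bound.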

How the results depend on the processing

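Of 159 named genes 150 kept direction and call for 6 °C against 25 °C in every alternative that could test them. RBCS reversed to 0.97 and the dnaJ homolog DN49416_c1_g2 to 1.12 under quantile normalisation. Called genes (risen, fallen) fell to 16259 (8492, 7767) with at least 50 counts in 3 libraries and to 11965 (6237, 5728) among genes with a plant hit, both of which test fewer genes. The second fit was also scaled on those genes alone, and its rises outnumbered its falls. In the main fit genes with a plant name had 5311 rises and 6813 falls. Their cultivar differences there numbered 1083 higher and 2038 lower in Oregon. Leaving out 1 Oregon library gave 21935 to 23321 calls, 12059 to 13547 risen and 9621 to 10117 fallen. Same-numbered libraries were not paired in the main fit. A replicate block gave 23672 calls (13623 and 10049) and 3376 cultivar differences (1580 higher and 1796 lower in Oregon). Cultivar differences (higher, lower) numbered 6884 (3650, 3234) with DESeq2's Wald test, 7368 (3722, 3646) with quantile normalisation and limma, 3181 (1495, 1686) among genes with a plant hit and 3055 (1398, 1657) with only the groups compared. For the Wald test and quantile results the cause was not tested. Leaving out 1 library of the 4 groups gave 2626 to 7288 differences, 1144 to 3462 higher and 1481 to 3826 lower. Of 236 list counts, 31 moved by over 1.5 times with no fold minimum, 27 among genes with a plant hit, 13 with quantile normalisation and 8 to 12 when 1 Oregon library was left out. With quantile normalisation these were among others falls of genes named for chloroplast genome proteins (15 in place of 8) and of cytosolic ribosomal proteins (23 in place of 15). Rounding and library size limit genes of a few counts.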
